A study of Homo sapiens with 2 samples.

Results

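S100A10, a member of the S100 family of small calcium-signalling proteins, stood at 9.71 in the lymphoma line SUDHL6 and at 2.43 in the line HT, on the log2 scale. ANXA2, which encodes its main binding partner annexin A2, went the other way, at 4.18 in SUDHL6 and 5.74 in HT. The genes described here are 5 S100 genes (S100A10, S100A4, S100A6, S100A11 and S100A13) and 5 annexin genes (ANXA1, ANXA2, ANXA5, ANXA6 and ANXA7), taken where a probe set of the array named that gene and no other. Of these 10 genes, 9 had such a probe set, among 14232 genes in all, and S100A4 had none and is not described by a value. Each of the 9 had 1 such probe set. The genes were selected on their measured log2 values in these 2 arrays and on family membership, so the differences are a description and no test rests on them.

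The study measured the untreated baseline of SUDHL6 and HT, 2 established human cell lines of diffuse large B cell lymphoma, for work on a compound that inhibits the Polycomb repressive complex PRC2, per the series title. Both lines were cultured alike, in RPMI GlutaMAX medium with fetal bovine serum and antibiotics, and total RNA of each was hybridised to 1 Affymetrix exon array. The 2 columns hold log2 expression values for 22011 probe sets. With 1 array per line, the number of arrays limits the precision: no spread between cultures, no p-value and no replicate check exists for any difference below.

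S100 proteins are small proteins with a pair of EF-hand loops that bind calcium, and most act as dimers that change shape and grip a target protein when calcium rises. Annexins bind membranes rich in acidic phospholipids such as phosphatidylserine when calcium rises, and link them to the cytoskeleton, to vesicle traffic and to membrane repair. The families meet in complexes of an S100 dimer with annexin tails, of which annexin A2 with S100A10 is the best studied. S100A10 is unusual in that its loops no longer bind calcium, and in many cells its protein is broken down when annexin A2 is missing. At the cell surface the complex binds plasminogen and its activators. Annexin A1 is abundant in myeloid and epithelial cells, while annexins A5, A6 and A7 are found in many cell types.

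A difference is SUDHL6 minus HT on the log2 scale, so a positive value means a higher value in SUDHL6. The level that unexpressed genes reach was taken from 225 olfactory receptor genes. Their 95th percentile, called the background level below, came to 3.81 in SUDHL6 and 4.11 in HT. Genes were counted as higher in a line where the size of the difference was 1 or more and the value in that line reached its background level. Where the other value did not reach the background level, the fold was taken against that level and is written as a bound, "at least". The differences of the olfactory receptor genes had a standard deviation of 0.63 and lay between -1.03 and 1.26 in the central 95%, so a difference of 1 is near the noise of dim genes. A probe set's value depends on its probes, and values are compared between the lines for 1 gene, not between genes.

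By that count 1 of the 9 genes, S100A10, was higher in SUDHL6, where 3.5% of all 14232 genes were. In HT 3 of the 9 were higher (ANXA2, ANXA6 and ANXA7), where 4.62% of all genes were. Because the genes were chosen with this contrast known, nothing is read from these counts against the background. ANXA5, S100A6 and S100A13 reached the background level in both lines with a difference under 1, and S100A11 and ANXA1 lay below it in both. The median difference of the 9 genes was -0.10, against -0.04 over all genes. The gene just past the threshold was ANXA6 at -1.03, and the gene just short of it was ANXA5 at -0.86.

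**Figure D1:**
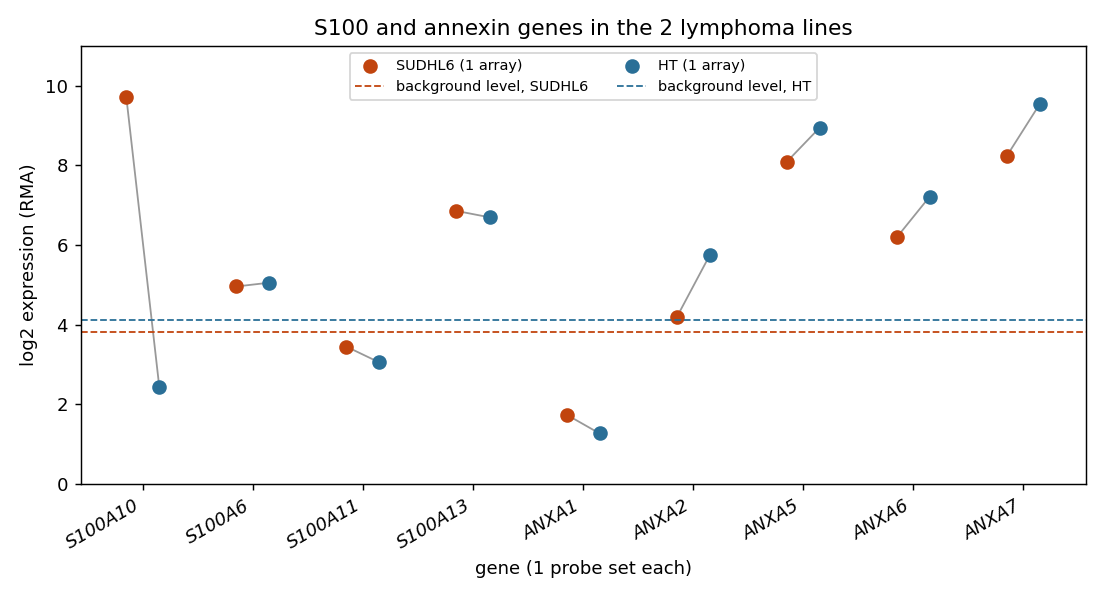
log2 expression (y axis) of the 9 genes with a value (x axis) in SUDHL6 (orange, left) and HT (blue, right), 1 array each, joined by a line, with the background level of each line dashed. S100A10 is far above the background level in SUDHL6 and below it in HT, while ANXA2, ANXA5, ANXA6 and ANXA7 are higher in HT and above the background level in both lines. Heights are not comparable between genes.

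S100A10 was at least 48.5-fold higher in SUDHL6, taken against the HT background level of 4.11, since the HT value of 2.43 lay below it. Taken without that bound the difference was 7.29, and with both values raised to their background level it was 5.60. Its difference was not given a place among other genes, because the HT value is below the level at which values have an order. Quantile normalization and removal of the trend with level gave 7.31 and 7.40.

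S100A10 and S100A11 are next to each other on chromosome 1 among genes with a value, and S100A11 did not share the difference. S100A11, whose protein binds annexin A1, stood at 3.45 in SUDHL6 and 3.05 in HT. Both values lay below the background level, so their difference of 0.40 has no fold. On the other side of S100A10, THEM4, a thioesterase gene, stood at 6.32 in SUDHL6 and 6.30 in HT. The 6 nearest genes with a value, 3 on either side of S100A10, had a median difference of 0.01 and ran from -0.09 to 0.40. Only 3 of the 6 reached the background level, and CRNN, which was among these, held the same value on both arrays. S100A10 was thus the only gene with a large difference among the genes with a value here, as the plot of differences by gene order shows. Differences of the neighbours below the background level carry little information.

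**Figure D2:**
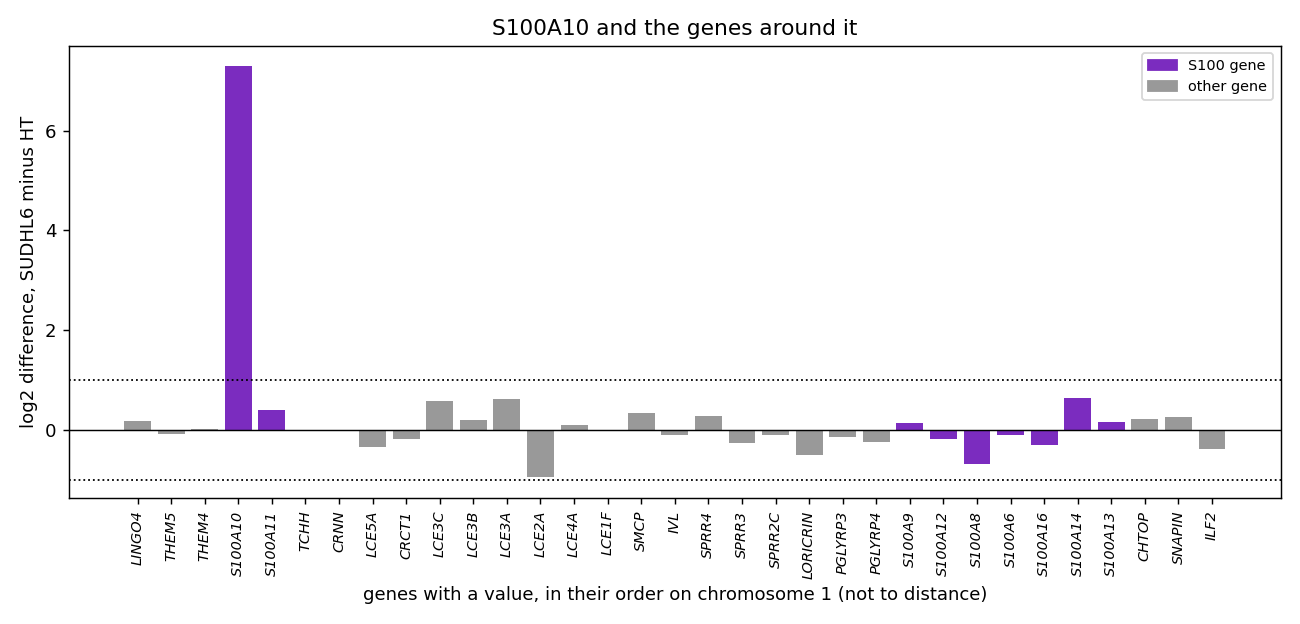
Difference in log2 expression, SUDHL6 minus HT (y axis), for the genes with a value from 3 before S100A10 to 3 after S100A13, in their order on chromosome 1 (x axis, 1 bar per gene, S100 genes in purple). S100A10 stands at 7.29 and every other bar lies between the dotted lines at -1 and 1.

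The stretch from S100A10 to S100A13 also holds the genes of the epidermal differentiation complex, which build the outer layer of the skin. Leaving S100A10 out, 26 of its genes had a value, S100A13 included, and 13 of them reached the background level. Their differences ran from -0.95 to 0.64 with a median of -0.06, and 0 of the 26 were counted as higher in either line. LCE5A, a gene of the skin complex, was among the 13, at 6.36 in SUDHL6 and 6.70 in HT. Whether a value past the background level reflects expression was not tested. The limits of this stretch are the listed S100 genes, chosen after the values of S100A10 were known.

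S100A6 and S100A13 differed little between the lines. S100A6, or calcyclin, which binds the ubiquitin ligase adaptor encoded by CACYBP, stood at 4.96 in SUDHL6 and 5.05 in HT, which gives -0.10. S100A13, which helps to export FGF1 and interleukin 1 alpha without a signal peptide, stood at 6.86 in SUDHL6 and 6.70 in HT. Its difference of 0.16 became 0.29 with either scaling. For both genes the values of the 2 lines were closer together than 1 standard deviation of the olfactory receptor differences.

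A wider list held 16 further S100 genes, of which 9 had a value, 2 reached the background level and 0 were counted as higher in either line. S100Z, the first of the 2, stood at 6.32 in SUDHL6 and 7.15 in HT. It was 1.78-fold higher in HT, and its difference of -0.83 was short of the threshold. S100A14, an S100 gene of epithelia, stood at 4.51 in SUDHL6 and 3.86 in HT, which makes it at least 1.31-fold higher in SUDHL6. Calprotectin, the S100 dimer of neutrophils and monocytes, is encoded by S100A8 and S100A9. S100A8 stood at 2.07 in SUDHL6 and 2.76 in HT, and S100A9 at 3.17 in SUDHL6 and 3.04 in HT, all below the background level. S100A12, S100A16, S100B, S100G and S100P were also below it in both lines, with differences between -0.31 and 0.23. The list's median was -0.18.

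ANXA2 was 2.95-fold higher in HT, a difference of -1.56. The SUDHL6 value of 4.18 was only a little above the background level of 3.81, while the HT value of 5.74 was clearly above it. Among the 8179 genes at or above the background level in both lines, 139 (1.70%) had a difference at least as far below 0. The genes were chosen with this contrast known, so this share and those of ANXA5, ANXA6 and ANXA7 below are descriptions and not tests. The same share was 49.9% for S100A6 and, taken above 0, 25.7% for S100A13. The line with the high S100A10 value thus had the lower ANXA2 value, and the line whose S100A10 was below the background level had the higher one. The arrays measured RNA, and neither protein nor the complex was measured.

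ANXA2 has processed pseudogene copies of nearly the same sequence, and its value is uncertain for that reason. A probe set that the annotation gives to ANXA2P2 and ANXA2 together stood at 3.77 in SUDHL6 and 6.85 in HT, so that HT was higher by at least 8.18-fold. The ANXA2P3 probe set stood at 2.86 in SUDHL6 and 3.76 in HT, below the background level in both. The ANXA2P1 probe set stood at 4.07 in SUDHL6, just past its background level, and at 3.30 in HT, below the HT level, and no fold is given for it. The shared probe set and the one for ANXA2 itself thus had the same direction but differed in size, at -3.07 and -1.56. Which copies the probes read was not tested.

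ANXA7 encodes annexin A7, or synexin, which aggregates and fuses vesicles in the presence of calcium. It stood at 8.24 in SUDHL6 and 9.54 in HT, 2.47-fold higher in HT, and 2.91% of the genes above the background level in both lines had a difference at least as far below 0. The difference of -1.31 remained past the threshold with either scaling, at -1.21 and -1.23.

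ANXA6 encodes annexin A6, whose core is a duplicated form of that of the other annexins and which binds cholesterol-rich membrane and protein kinase C alpha. It stood at 6.19 in SUDHL6 and 7.22 in HT, 2.04-fold higher in HT. Its place past the threshold was lost with quantile normalization, at -0.91, and with the trend removed, at -0.90. Of the genes above the background level in both lines, 5.49% had a difference at least as far below 0 as its deposited -1.03.

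ANXA5 encodes annexin A5, the phosphatidylserine-binding protein used in the laboratory to stain dying cells. It stood at 8.09 in SUDHL6 and 8.95 in HT. The difference of -0.86 was short of the threshold, and 7.92% of the genes above the background level in both lines had one at least as far below 0. Of the 5 chosen annexin genes, the 4 above the background level in both lines (ANXA2, ANXA5, ANXA6 and ANXA7) thus had lower values in SUDHL6. This direction was the same under quantile normalization and with the trend removed. ANXA11, which was not among the chosen genes, was also above the background level in both lines but had the higher value in SUDHL6, a difference of 0.35. Over all genes whose higher value reached the background level the median was -0.05, with quartiles at -0.38 and 0.22.

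ANXA1, whose glucocorticoid-induced protein product dampens inflammation through formyl peptide receptors, stood at 1.74 in SUDHL6 and 1.27 in HT. Both values were far below the background level, and no fold is given. Of 8 further annexin genes 5 had a value, 1 reached the background level and 0 were counted as higher in either line. ANXA11, whose protein ties RNA granules to lysosomes, stood at 6.26 in SUDHL6 and 5.92 in HT. ANXA3, ANXA4, ANXA10 and ANXA13 were under the background level in both lines, with differences between -0.14 and 0.47. A lower value in SUDHL6 was therefore not seen in every annexin with a value.

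**Figure D3:**
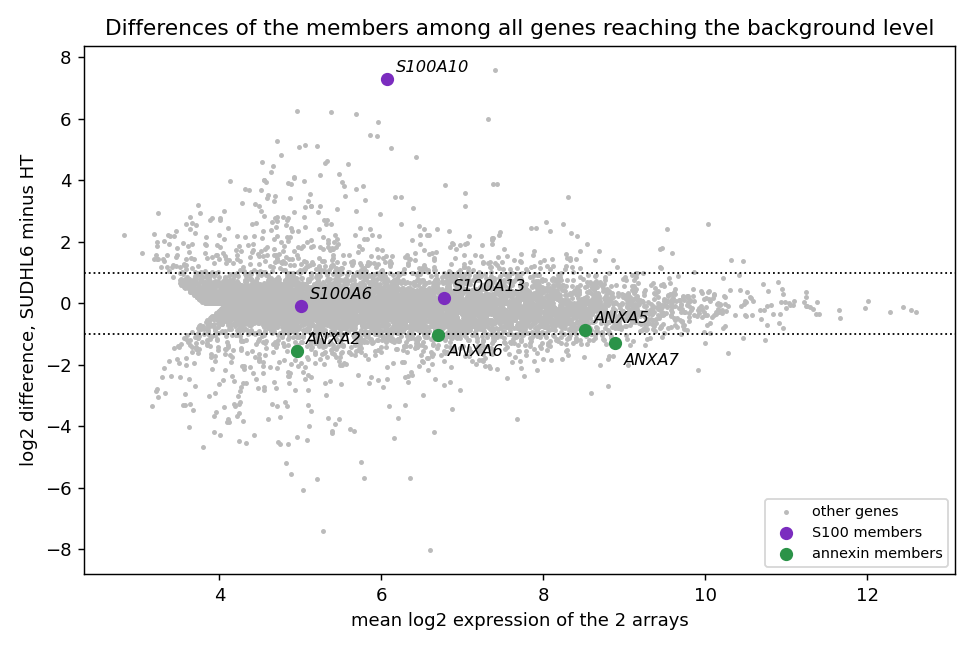
Difference in log2 expression, SUDHL6 minus HT (y axis), against the mean log2 value of the 2 arrays (x axis) for the 9405 genes whose higher value reached the background level (grey), with the 7 of the 9 genes among them named. S100A10 is drawn at its deposited difference of 7.29 (5.60 with values raised to the background level, so its height has no place among the others), S100A6 and S100A13 lie near 0, and ANXA2, ANXA5, ANXA6 and ANXA7 between -1.56 and -0.86.

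The promoters of 4 of these genes are shown for the contrast between S100A10 and its neighbour S100A11, and between ANXA2, which reached the background level in both lines, and ANXA1, which did so in neither. Each runs from 250 bases before the gene's start to 50 after it, 5′ to 3′ on the gene's strand, from RefSeq on build GRCh38.p14. S100A10 is at chr1:151993810-151994109 on the minus strand, S100A11 at chr1:152036955-152037254 on the minus strand, ANXA2 at chr15:60397937-60398236 on the minus strand and ANXA1 at chr9:73151615-73151914 on the plus strand. Capitals mark the letters of 6 motifs searched on both strands: the GC box (GGGCGG), the AP-1 motif (TGANTCA), the TATA motif (TATAAA), the CCAAT motif (CCAAT), the E-box (CACGTG) and the cAMP response element (TGACGTCA).
S100A10: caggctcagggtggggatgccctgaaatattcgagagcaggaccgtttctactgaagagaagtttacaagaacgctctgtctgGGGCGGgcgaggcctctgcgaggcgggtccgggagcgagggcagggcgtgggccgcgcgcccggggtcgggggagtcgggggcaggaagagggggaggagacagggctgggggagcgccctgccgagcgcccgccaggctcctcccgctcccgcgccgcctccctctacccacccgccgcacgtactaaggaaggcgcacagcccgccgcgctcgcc
S100A11: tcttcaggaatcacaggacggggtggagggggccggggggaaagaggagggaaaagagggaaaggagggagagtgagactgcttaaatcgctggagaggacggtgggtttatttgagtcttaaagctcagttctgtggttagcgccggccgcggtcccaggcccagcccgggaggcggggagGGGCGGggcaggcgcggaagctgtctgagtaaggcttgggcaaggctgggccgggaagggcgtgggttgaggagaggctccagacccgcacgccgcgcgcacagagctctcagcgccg
ANXA2: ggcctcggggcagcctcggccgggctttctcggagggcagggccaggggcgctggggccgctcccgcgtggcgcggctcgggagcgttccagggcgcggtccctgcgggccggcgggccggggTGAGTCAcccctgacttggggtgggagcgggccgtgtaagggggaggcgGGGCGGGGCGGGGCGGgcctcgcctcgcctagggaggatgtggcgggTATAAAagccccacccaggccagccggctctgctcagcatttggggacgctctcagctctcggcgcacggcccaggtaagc
ANXA1: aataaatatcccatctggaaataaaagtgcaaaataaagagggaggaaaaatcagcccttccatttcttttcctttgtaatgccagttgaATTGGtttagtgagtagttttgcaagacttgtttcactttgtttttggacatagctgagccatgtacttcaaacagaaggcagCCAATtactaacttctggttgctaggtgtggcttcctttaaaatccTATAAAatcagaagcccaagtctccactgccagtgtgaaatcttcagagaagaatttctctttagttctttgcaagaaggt

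All 10 listed genes matched a RefSeq promoter, with 13 promoters in all, since S100A13 has 3 and ANXA6 has 2. The S100A10 promoter held 32 CpG dinucleotides and 1 GC box, and the S100A11 promoter 22 CpG dinucleotides and 1 GC box. Neither held any of the other 5 motifs. Over all 35116 promoters of the same length the median was 14 CpG dinucleotides, and 45.0% held a GC box. The ANXA2 promoter held 32 CpG dinucleotides, 3 GC boxes that overlap each other, 1 AP-1 motif and 1 TATA motif. An AP-1 motif was held by 7.71% and a TATA motif by 11.5% of all promoters. The ANXA1 promoter held 0 CpG dinucleotides, 1 TATA motif and 2 CCAAT motifs, the last held by 34.6% of all promoters. The TATA motifs of ANXA1 and ANXA2 both began at -31 from the start. Of the other genes higher in HT, ANXA7 had 23 CpG dinucleotides, 3 GC boxes and 1 CCAAT motif. The upstream promoter of ANXA6 had 25 CpG dinucleotides, 1 GC box, 1 CCAAT motif and the E-box, which 7.26% of all promoters held. The cAMP response element was in none of the 13 promoters and in 1.85% of all. A match is a run of letters, not a bound site, and binding and methylation were not measured.

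Partners of the annexin A2 and S100A10 complex and genes of the plasminogen system did not follow S100A10 past the threshold. Of 14 genes listed, 10 had a value, 7 reached the background level and 0 were counted as higher in either line, with a median of 0.00. ENO1, a glycolytic enzyme that also binds plasminogen at the cell surface, stood at 8.77 in SUDHL6 and 8.53 in HT. HLTF, a chromatin remodeller that binds the annexin A2 and S100A10 complex, stood at 8.10 in SUDHL6 and 8.38 in HT. For 3 of the 10 genes the arrays held exactly the same value, as for 541 of all 14232 genes. PLAT and PLAU were among these, at 3.90 in both lines. They are counted in the 7, although 3.90 reaches the background level of SUDHL6 and not that of HT.

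Among 13 receptors and binding partners of S100 proteins, 11 had a value and 7 reached the background level, with 0 counted as higher in SUDHL6 and 2 in HT. TLR4, the Toll-like receptor that answers to calprotectin, was 2.32-fold higher in HT, at 3.87 in SUDHL6 and 5.08 in HT. SUGT1, a chaperone adaptor that binds S100A6, was 2.26-fold higher in HT, at 7.59 in SUDHL6 and 8.77 in HT. The list's median was 0.03. S100PBP, an S100P-binding protein gene, had only a probe set shared with YARS1, which stood at 8.02 in SUDHL6 and 7.02 in HT.

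Among 10 receptors and binding partners of annexins, 8 had a value and 3 reached the background level, with 1 counted as higher in SUDHL6 and 0 in HT. That gene was PRKCA, the protein kinase C alpha that annexin A6 binds, 2.28-fold higher in SUDHL6 at 7.61 against 6.42 in HT. PRKCA and ANXA6 thus differed in opposite directions. The formyl peptide receptor genes FPR1, FPR2 and FPR3 were under the background level in both lines, with SUDHL6 values between 1.91 and 2.38 and HT values between 2.41 and 2.85. The list's median was -0.02, and 0.03 and 0.04 with the scalings.

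The remaining lists cover processes in which annexins and EF-hand proteins take part. Of 10 genes of phosphatidylserine exposure, the ligand that annexins bind, 6 had a value, 4 reached the background level and 0 were counted as higher in either line. The median was -0.35, or -0.07 where shared probe sets were added. All 6 with a value, including the 4 that reached the background level, had lower values in SUDHL6. Of all 14232 genes with a value, at any level, 7534 had lower values in SUDHL6. The flippase genes ATP11B, at 6.27 in SUDHL6 and 6.49 in HT, and ATP8A1, at 5.95 in SUDHL6 and 6.61 in HT, were among these 4. Of 11 membrane repair genes, 9 had a value, 4 reached the background level and 0 were counted as higher in either line, with a median of -0.0045. The calpain subunit gene CAPNS1 stood at 8.29 in SUDHL6 and 8.70 in HT, and the ESCRT gene CHMP4B at 8.16 in SUDHL6 and 7.94 in HT.

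Of 21 other EF-hand genes, 15 had a value, 13 reached the background level, 1 was counted as higher in SUDHL6 and 0 in HT, with a median of 0.13. GCA, which encodes the neutrophil protein grancalcin, was that gene, with 4.97 in SUDHL6 and 2.36 in HT, which makes it at least 1.81-fold higher in SUDHL6. With values raised to the background level its difference was 0.85, under the threshold. The fused-type S100 genes, in which an S100 domain heads a long skin protein, had 2 of 7 with a value. CRNN held 4.35 on both arrays, and TCHH stood at 3.47 in SUDHL6 and 3.49 in HT.

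**Figure D4:**
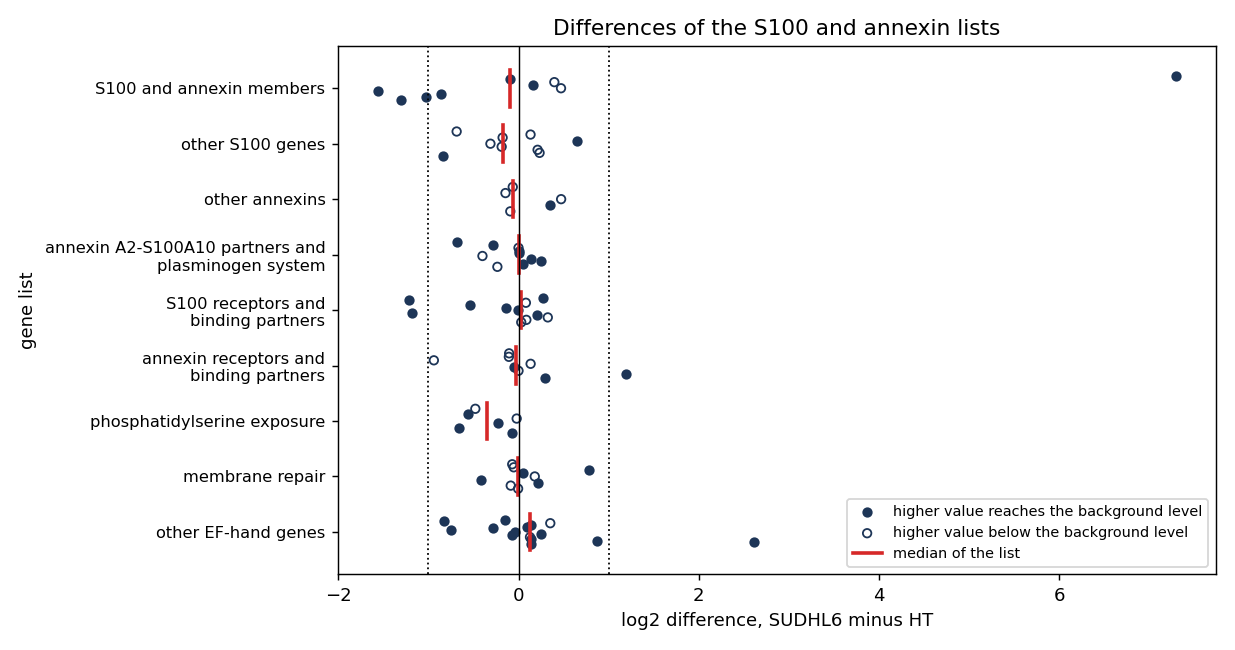
Difference in log2 expression, SUDHL6 minus HT (x axis), of each gene with a value in 9 lists (y axis), filled where the higher value reached the background level and open where it did not, with the median of each list as a red bar. S100A10 at 7.29 and GCA at 2.61 are drawn at their deposited differences, although their HT values lay below the background level (5.60 and 0.85 with values raised to it), and the list medians lie between -0.35 and 0.13.

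Cell type markers were checked because S100 and annexin genes are abundant in myeloid, epithelial and connective tissue cells. Both samples are cell lines and not tissue, and the cells in each culture were not counted by type here. In bulk RNA fewer cells of a type and less RNA per cell cannot be told apart. All 6 B cell markers with a value reached the background level, and 1 was higher in SUDHL6, MS4A1, which encodes CD20, at 11.33 in SUDHL6 and 8.75 in HT. Of 6 myeloid markers 2 reached the background level, of 8 T and NK cell markers 4, and of 6 epithelial markers 3, with 0 counted as higher in either line. The myeloid markers CD68, at 5.53 in SUDHL6 and 5.95 in HT, and TYROBP, at 4.27 in SUDHL6 and 4.08 in HT, were the 2 that reached it. CD7 stood at 5.49 in SUDHL6 and 5.73 in HT, and NKG7 at 4.91 in SUDHL6 and 5.30 in HT. The keratin gene KRT8 stood at 8.27 in SUDHL6 and 8.12 in HT, and KRT14 at 5.42 in SUDHL6 and 6.11 in HT. The T cell genes CD2, CD3D, CD3E and CD3G lay below the background level in both lines, as did the epithelial genes EPCAM, CDH1 and KRT18. The defining myeloid genes CD14 and LYZ lay below the background level in both, CD14 at 3.02 in SUDHL6 and 2.94 in HT and LYZ at 1.94 in SUDHL6 and 2.22 in HT. Of 8 fibroblast and endothelial markers 4 reached the background level and 2 were higher in HT. LUM, at 2.38 in SUDHL6 and 6.22 in HT, and DCN, at 2.09 in SUDHL6 and 5.05 in HT, encode small proteoglycans of the matrix. The collagen genes COL1A1 (4.47 in SUDHL6 and 4.44 in HT) and COL1A2 (4.55 in SUDHL6 and 4.61 in HT) differed by 0.03 and -0.06, and COL3A1 (3.70 in SUDHL6 and 3.60 in HT) was below the background level in both. The log2 values of the 8 markers summed to 26.0 in SUDHL6 and 33.2 in HT, and none was at 0. The part of these genes in the annexin differences was not tested.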

How the data were processed

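The log2 values were deposited by the authors as 1 column per array, 1 array for each line. They were made with tools listed as RMA and Affymetrix Expression Console, without versions, per the submitters' processing notes. The settings, the build and how many arrays RMA summarised jointly were not given in the sources used here. Of 22011 probe sets, the platform annotation names 1 gene for 14432 and several for 2408, and 5171 are unnamed here. Symbols were updated by gene number to RefSeq (GRCh38.p14), which matched 14404 of the 14432. A gene with several probe sets was represented by the one of highest mean, leaving 14232 genes. Differences, background level, lists, neighbours (3 on each side, by gene order) and promoter motifs were computed in Python 3.11.15 with pandas 2.3.3, and the lowess trend (fraction 0.3) with statsmodels 0.14.6. The code for the counting was checked on simulated data whose noise was smaller than the spread of the olfactory receptor differences. Differences were placed there only in genes well above the background level, so that check gives no rate of false counts among dim genes. The members and lists were chosen with earlier results of these data known. No test was made, and with 2 arrays no gene was named for a pattern like that of another.

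Named genes are the 10 listed, other S100 genes and annexins, up to 4 genes of each further list past the threshold or else its 2 with the highest mean, and the 3 nearest genes on either side. FPR1, FPR2, FPR3, CD14, LYZ, the collagen genes, the ANXA2 pseudogenes and S100PBP were named after their values were seen. So were CD2, CD3D, CD3E, CD3G, EPCAM, CDH1, KRT18, PLAT and PLAU. Protein sequences were not used here.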

Additional observations from a re-analysis of the deposited data

How the results depend on the processing

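Each difference of the 9 genes and each count was recomputed with quantile normalization, with the lowess trend removed, with the mean of all probe sets of a gene, with probe sets naming several genes included and with values raised to the background level; the counts were also taken with other background levels, no filter and other thresholds. The S100A10 difference stayed at 7.29 with the probe set settings, and the other background levels, the filter and the thresholds cannot alter it. It was 7.31 with quantile normalization, 7.40 with the trend removed and 5.60 with values raised to the background level. S100A11 and ANXA1, dim in both lines, took the difference between the 2 background levels, -0.30, by construction there. ANXA2 was at -3.07 with probe sets naming several genes included, through the one it shares with ANXA2P2. The count of the 9 genes higher in HT was 2 with either scaling, 4 at a threshold of 0.5 and 1 at a threshold of 1.5. Over all genes, the counts higher in SUDHL6 and HT were 1233 and 1835 at 0.5 and 275 and 285 at 1.5, and 576 and 568 with quantile normalization. For these values with no test, a difference was called moved where it changed by more than the standard deviation of the olfactory receptor differences, 0.63. No replicate could be left out with 1 array per line. No paired analysis was possible because each line has 1 array. Signal over background limits S100A11 and ANXA1 in both lines and S100A10 in HT.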

Other observations

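Genes beside some of the annexin genes also had lower values in SUDHL6. Over all 14232 genes with a value, 7534 did so and 4.62% were counted as higher in HT, and nothing is read from the neighbour counts against these. The 6 neighbours of ANXA7 on chromosome 10, of which 5 reached the background level, all had lower values in SUDHL6, with a median of -0.81, and FAM149B1 was counted as higher in HT, at 5.80 in SUDHL6 and 7.08 in HT. PPP3CB, which encodes a catalytic subunit of the phosphatase calcineurin, stood at 6.80 in SUDHL6 and 7.64 in HT. Around ANXA5 on chromosome 4, 3 of the 6 neighbours reached the background level (EXOSC9, CCNA2 and BBS7), and these 3 had lower values in SUDHL6. Of these, EXOSC9, an RNA exosome subunit gene, was counted as higher in HT, at 7.58 in SUDHL6 and 8.79 in HT. CCNA2, the cyclin A2 gene, stood at 8.19 in SUDHL6 and 8.81 in HT.

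The neighbours of ANXA2 on chromosome 15 had a median of -0.38, with 5 of 6 lower in SUDHL6 and 0 counted as higher in either line. Around ANXA6 on chromosome 5, where 5 of the 6 neighbours reached the background level, the median was 0.15 and 2 were lower in SUDHL6, although ANXA6 itself was at -1.03. Around ANXA1 on chromosome 9 it was -0.13, with 2 of the 6 reaching the background level. Copy number was not measured, and its part in these values was not tested.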
